A study of Mus musculus with 12 samples.

Results

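The 10 genes described here belong to the unfolded protein response of the endoplasmic reticulum (ER): the sensors Ern1 and Atf6, the transcription factor gene Xbp1, the chaperones and folding factors Hspa5, Hsp90b1, Calr, Pdia4, Dnajb9 and Sdf2l1, and the degradation factor Herpud1. They were chosen by gene name, 10 of 20469 genes tested, and each was measured by its brightest probe. All 10 probes were well above background on all 12 arrays, so no member was lost to the filter on dim probes. RNA came from mouse bone marrow-derived macrophages, cells grown out of bone marrow of female C57BL/6 mice aged 6 to 8 weeks over 7 days in medium conditioned by L929 cells, and was hybridised to single-colour arrays, 3 per group. Untreated cells received no lipopolysaccharide (LPS), the bacterial cell wall component that macrophages sense through Toll-like receptor 4. Acute cells received LPS for 4 hours. Tolerant cells received LPS for 8 hours, rested for 16 hours and received LPS again for 4 hours. Recovered cells were treated in the same way with a rest of 88 hours, where the protocol text gives 2 to 4 days. The study asked how macrophages that have become tolerant respond once they have been left to recover. Whether the 3 independent experiments used separate animals is not stated, so p-values measure the spread between these arrays.

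When unfolded proteins load the ER, the kinase and RNase Ern1 (IRE1 alpha) splices the Xbp1 messenger RNA, which allows the active XBP1 factor to be made. Atf6 is cut in the Golgi to release another factor, and both factors raise genes for chaperones and for ER-associated degradation. Hspa5 (BiP) binds the sensors at rest and also folds new proteins, and in macrophages Toll-like receptor signalling is known to engage the Ern1 and Xbp1 branch. An array probe gives the level of the transcript and says nothing of Xbp1 splicing or of Atf6 cleavage.

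The windows before the start sites of 4 members are printed because they hold one of the elements through which ATF6 and XBP1 act. They come from RefSeq gene starts on GRCm38.p6, span the 250 bases before each start, run 5′ to 3′ along the gene, and carry the element in capitals. ERSE was searched as CCAAT, then 9 bases of any kind, then CCACG. ERSE-II was searched as ATTGG, then 1 base of any kind, then CCACG, and the UPRE core as TGACGTGG, all on both strands. Hspa5 (chr2:34771840-34772089, plus strand) held ERSE on its own strand from 65 to 47 bases before the start. Hsp90b1 (chr10:86705445-86705694, minus strand) held it at 212 to 194 bases before the start and again, on the opposite strand, up to 89 bases before the start. Calr (chr8:84846932-84847181, minus strand) held it on the opposite strand at 162 to 144, and Herpud1 (chr8:94386179-94386428, plus strand) held ERSE-II at 52 to 42.
Hspa5: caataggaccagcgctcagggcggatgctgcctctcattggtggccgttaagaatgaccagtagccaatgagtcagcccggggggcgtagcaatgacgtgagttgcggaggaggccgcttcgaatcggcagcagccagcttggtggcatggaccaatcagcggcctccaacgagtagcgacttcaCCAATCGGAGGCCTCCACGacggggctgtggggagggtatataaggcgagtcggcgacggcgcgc
Hsp90b1: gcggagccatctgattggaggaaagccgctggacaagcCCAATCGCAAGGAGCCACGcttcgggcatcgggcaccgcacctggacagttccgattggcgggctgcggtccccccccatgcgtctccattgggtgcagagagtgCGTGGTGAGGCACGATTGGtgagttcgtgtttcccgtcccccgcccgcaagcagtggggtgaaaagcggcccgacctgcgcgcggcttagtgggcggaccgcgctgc
Calr: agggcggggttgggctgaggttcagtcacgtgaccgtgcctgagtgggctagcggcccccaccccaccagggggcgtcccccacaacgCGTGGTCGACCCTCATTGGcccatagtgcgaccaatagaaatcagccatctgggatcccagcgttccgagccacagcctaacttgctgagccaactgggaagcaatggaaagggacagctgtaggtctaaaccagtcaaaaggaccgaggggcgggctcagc
Herpud1: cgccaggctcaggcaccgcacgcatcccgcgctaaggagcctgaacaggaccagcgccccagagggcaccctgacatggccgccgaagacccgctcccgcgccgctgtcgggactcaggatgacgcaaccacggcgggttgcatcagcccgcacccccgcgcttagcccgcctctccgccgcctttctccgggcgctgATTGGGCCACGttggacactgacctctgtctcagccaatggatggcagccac

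The search also took in a short stretch after each start, which is not printed, and the counts refer to these longer windows. ERSE was found in 3 of the 9 members that had a window and in 39 of 32851 windows overall (0.119%). ERSE-II was found in 1 of the 9 and in 12 windows overall (0.0365%). The UPRE core was found in 222 windows (0.676%) and in 0 of the 9. A match is a match of letters, and the group means of these 4 genes did not follow 1 order: that of Hspa5 was lowest in untreated cells, that of Herpud1 was highest there, and those of Calr and Hsp90b1 were highest in tolerant cells.

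Before the genes are taken in turn, 3 facts of the whole series bear on them. Between 47.8% and 55.0% of spots per array were well above background and 0 were saturated, and Tnf, Il6 and Cxcl10 were higher in every LPS group than in untreated cells. Arrays with the same replicate number deviated together from their group means (r of 0.275 to 0.773 over 18 pairs of arrays, across all genes), so a second model with the replicate number as a block is given wherever it changes a call. Replicate numbers largely coincide with the slide and, for replicate 3, with the scan day. Below, an experiment means the arrays of the same replicate number. That these belong together is taken from the numbering alone, and it cannot be told apart from a shared slide or scan day. All 7 macrophage markers were above background on all 12 arrays. Their summed intensity was 541113 to 573793 in untreated, 527358 to 603597 in acute, 538986 to 643491 in tolerant and 615183 to 763023 in recovered cells. The markers did not move alike: in recovered against untreated cells Csf1r and Cd68 gave 0.60 and 0.59, Adgre1 -0.12 and Itgam -0.60. Itgam was also lower in acute (-0.34) and tolerant cells (-0.54). Fewer cells of a type and less RNA per cell cannot be told apart in bulk RNA. Arrays were scaled to an equal 75th percentile, which before scaling ran from 8.04 in recovered replicate 1 to 9.38 in tolerant replicate 3 (log2). Scaling therefore lowered tolerant replicate 3 most. Relative to the scaling used here, quantile normalization moved the median difference of all genes between acute and untreated cells from 0.02 to -0.12 on the log2 scale, and that between recovered and untreated cells from 0.06 to -0.08. With the authors' values the share of higher genes among those called fell from 48.8% to 37.3% in acute, from 56.6% to 40.8% in tolerant and from 52.2% to 38.9% in recovered against untreated cells.

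Across the groups, Herpud1 changed most, by 5.95-fold between untreated and recovered cells, while Xbp1 did not pass the test in any of the 6 comparisons. Calr was higher in tolerant cells than in each of the other 3 groups, and Ern1 fell in acute and recovered cells. In the limma fit of all 12 arrays, with Benjamini-Hochberg adjustment over all genes, 4 of 10 members differed among the 4 groups by the F-test (Herpud1, Sdf2l1, Calr and Ern1), beside 40.1% of all genes. Under the replicate block 8 did, all but Hsp90b1 and Xbp1, beside 66.8% of all genes. These shares of members are not far from the shares of all genes called by the same rule.

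**Figure D1:**
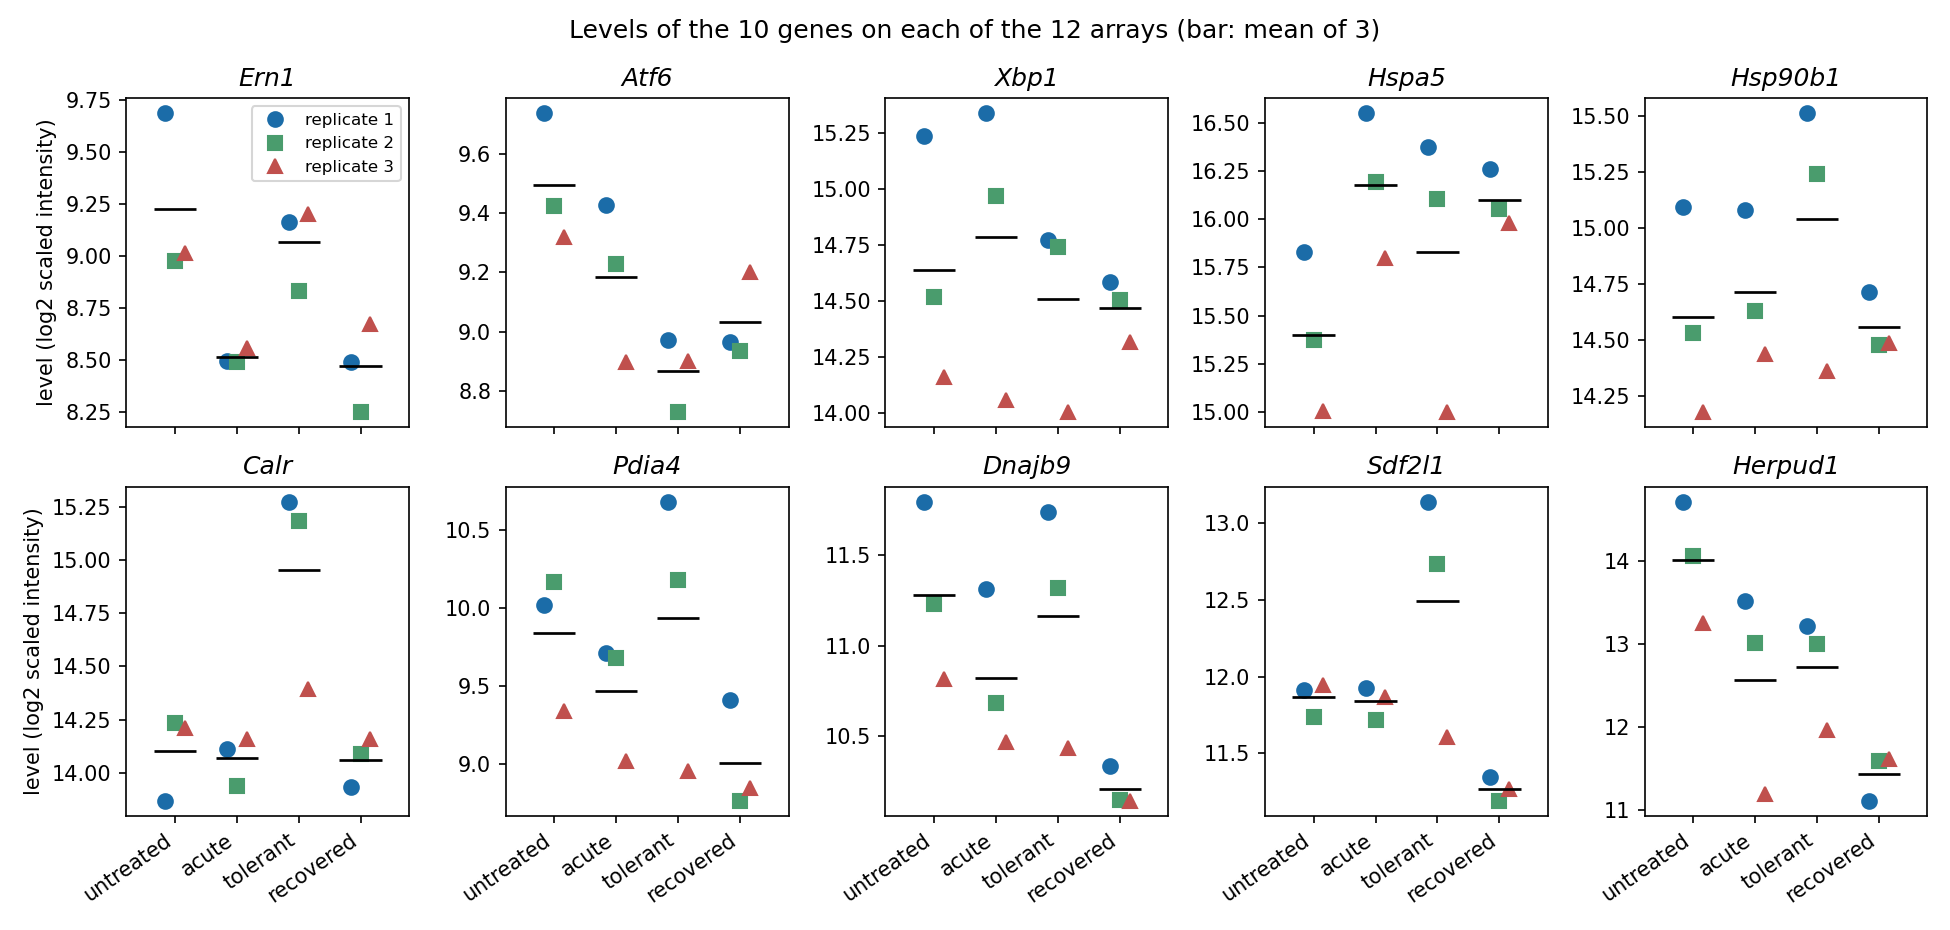
Scaled log2 intensity (y axis) of the 10 genes on each array, by group (x axis); circles, squares and triangles are replicates 1, 2 and 3 and bars are means of 3. Herpud1 runs from 14.01 in untreated to 11.43 in recovered cells, and replicate 3 is the lowest of the 3 arrays for most genes in the untreated, acute and tolerant groups.

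Set against untreated cells, 1 member was called in acute cells (Ern1, lower), beside 29.3% of all genes, and 3 with the replicate block (Hspa5 higher, Herpud1 and Ern1 lower), beside 43.5%. In tolerant cells 2 were called (Calr higher, Atf6 lower), beside 19.9% of all genes, and 3 with the block, which added Herpud1, beside 37.5%. In recovered cells 3 were called, all lower (Herpud1, Dnajb9 and Ern1), beside 35.4% of all genes in either direction and 16.9% lower. The block brought this to 6, 1 higher (Hspa5) and 5 lower, as Pdia4 and Atf6 joined, beside 52.6%. These 3 comparisons share the untreated arrays, so their values are set side by side and not counted as separate evidence.

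Among the LPS groups, 1 member was called between tolerant and acute cells (Calr, higher in tolerant), beside 22.7% of all genes, and 2 with the block (Ern1 too), beside 44.5%. Between recovered and tolerant cells 2 were called, both lower in recovered cells (Sdf2l1 and Calr), beside 20.6% of all genes in either direction and 9.59% lower. With the block 7 were called there, all lower in recovered cells, beside 45.1% of all genes in either direction and 19.9% in that direction. Between recovered and acute cells limma called 0 members with or without the block, beside 2.04% and 10.7% of all genes. At an unadjusted p under 0.05 the counts there were 0 without and 2 with the block.

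Ern1, the sensor kinase, was at 9.69, 8.98 and 9.01 in untreated replicates 1 to 3, at 8.49, 8.49 and 8.56 in acute, at 9.16, 8.83 and 9.20 in tolerant and at 8.49, 8.25 and 8.67 in recovered cells (scaled log2 intensity, as for every level that follows). All acute and recovered arrays lay below all untreated and tolerant arrays. The fall from untreated cells was 0.71 ± 0.20 (SE) on the log2 scale in acute cells (1.64-fold, adjusted p = 0.0207 by limma) and 0.75 ± 0.20 in recovered cells (1.69-fold, adjusted p = 0.0135). In each of the 3 experiments the recovered array lay below the tolerant one, by 0.67, 0.58 and 0.53. That difference of -0.59 ± 0.16 was called with the replicate block (adjusted p = 0.0174) and not without it (adjusted p = 0.0610; 0.0174 to 0.169 over 24 alternatives). Likewise tolerant cells stood 0.55 ± 0.16 above acute cells, called with the block (adjusted p = 0.0225, against 0.0744 without it; 0.0138 to 0.189 over 24 alternatives). Without a replicate block both differences were also called in the authors' values (adjusted p of 0.0289 for tolerant against acute and 0.0262 for recovered against tolerant).

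The fall of Ern1 in acute cells lost its call without untreated replicate 1 (difference -0.48, adjusted p = 0.0663), acute replicate 1 (0.0558) or acute replicate 2 (0.0600), and that in recovered cells without recovered replicate 2 (0.0552). A second, dimmer Ern1 probe, designed to another transcript (chr11, 106275124 to 106275183 on mm9, against 106258948 to 106259007 for the probe used), gave -0.29 in acute, 0.67 in tolerant and -0.01 in recovered against untreated cells. Against untreated cells the probes therefore disagree, and with their mean neither fall was called (adjusted p of 0.0678 and 0.138). Among the LPS groups they gave the same directions: the dimmer probe read 0.96 for tolerant against acute and -0.68 for recovered against tolerant cells, and with the mean of both probes these were called (0.76 and -0.64, adjusted p of 0.0138 and 0.0335). T-cell markers moved opposite to Ern1. Of 3 markers Cd3e and Lck were measured, and their summed intensity was 2547 to 2955 in acute and 2318 to 2868 in recovered cells, against 1287 to 2015 in untreated and 1188 to 1668 in tolerant cells. By group mean Lck read 6.75 in untreated, 10.10 in acute, 7.21 in tolerant and 9.69 in recovered cells, and Cd3e 10.49, 10.63, 10.35 and 10.72, so Lck made up nearly all of the shift. Cd3d was above background on 2 of 12 arrays, and the part of these cells in the result was not tested.

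Atf6, the sensor that is cleaved in the Golgi, read 9.74, 9.43 and 9.32 in untreated, 9.43, 9.23 and 8.90 in acute, 8.97, 8.73 and 8.90 in tolerant and 8.96, 8.94 and 9.20 in recovered replicates 1 to 3. Every tolerant and every recovered array lay below every untreated array, while acute arrays overlapped both. Tolerant cells were lower than untreated cells by 0.63 ± 0.17 on the log2 scale (1.54-fold, adjusted p = 0.0267 by limma). Recovered cells stood at -0.46 ± 0.15 against untreated cells, called with the replicate block (adjusted p = 0.0267) and not without it (0.0621; 0.0130 to 0.208 over 24 alternatives). The call in tolerant cells was lost without untreated replicate 1 or 2 (adjusted p of 0.0918 and 0.0585) and without tolerant replicate 1, 2 or 3 (0.0503, 0.103 and 0.0562), each of which leaves a group with 2 arrays.

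Xbp1, whose messenger RNA Ern1 splices, was at 15.23, 14.52 and 14.16 in untreated, 15.34, 14.97 and 14.06 in acute, 14.77, 14.74 and 14.01 in tolerant and 14.58, 14.50 and 14.32 in recovered replicates 1 to 3. The 4 groups overlapped, and replicate 3 was the lowest array in each of them. Acute cells differed from untreated cells by 0.15, with a 95% confidence interval of -0.28 to 0.58 under the replicate block, and the sign turned both in the authors' values (-0.24) and under quantile normalization (-0.28). Against untreated cells the blocked interval was -0.56 to 0.30 in tolerant and -0.60 to 0.26 in recovered cells. Without the block the intervals were wider: -0.63 to 0.93 in acute, -0.91 to 0.65 in tolerant and -0.95 to 0.61 in recovered cells. A change of total Xbp1 transcript was not shown, and its size is bounded only as far as these wider intervals go. It was called in 1 of 24 alternatives for recovered cells, with the authors' values (-0.48, adjusted p = 0.0302 by limma; 0.0302 to 0.927 over the alternatives).

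Hspa5, the BiP chaperone, was at 15.83, 15.37 and 15.00 in untreated, 16.55, 16.19 and 15.80 in acute, 16.37, 16.10 and 15.00 in tolerant and 16.26, 16.05 and 15.98 in recovered replicates 1 to 3. Within each experiment the acute array lay above the untreated one, by 0.72, 0.82 and 0.79, and the recovered array did too, by 0.43, 0.68 and 0.98. Tolerant cells followed in replicates 1 and 2 (0.54 and 0.73) but not in replicate 3, where tolerant and untreated arrays both read 15.00. The rise under the replicate block was 0.78 ± 0.19 in acute cells (1.71-fold, adjusted p = 0.00852 by limma) and 0.69 ± 0.19 in recovered cells (1.62-fold, adjusted p = 0.0127). Without the block neither was called (adjusted p of 0.117 and 0.139). Over 24 alternatives the adjusted p ran from 0.00118 to 0.298 in acute and from 0.00183 to 0.344 in recovered cells, and the acute difference fell to 0.42 under quantile normalization. Both lower ends came from the block without tolerant replicate 3, a setting chosen after seeing the data. So did the lower ends given below for Hsp90b1, Pdia4, Dnajb9 and Sdf2l1. The replicate block on the first scan day alone was also chosen after seeing the data. It gave the lower ends for Atf6 in recovered against untreated cells and Herpud1 in recovered against tolerant cells.

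Hsp90b1 (GRP94), which folds Toll-like receptors and integrins among other clients, read 15.09, 14.53 and 14.18 in untreated, 15.08, 14.63 and 14.44 in acute, 15.51, 15.24 and 14.36 in tolerant and 14.71, 14.48 and 14.48 in recovered replicates 1 to 3. Tolerant replicates 1 and 2 were the highest of all arrays, and the groups otherwise overlapped. Recovered cells lay 0.48 ± 0.17 below tolerant cells under the replicate block (1.39-fold, adjusted p = 0.0486 by limma), which without the block was not called (0.287; 0.0126 to 0.660 over 24 alternatives). By experiment that difference was -0.80, -0.76 and 0.12, so replicate 3 did not share it. Acute against untreated cells gave 0.11 ± 0.31, and the sign turned both in the authors' values (-0.26) and under quantile normalization (-0.29).

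Calr (calreticulin), the lectin chaperone that binds calcium and folds glycoproteins, was at 13.87, 14.24 and 14.21 in untreated, 14.11, 13.94 and 14.16 in acute, 15.27, 15.18 and 14.40 in tolerant and 13.94, 14.09 and 14.16 in recovered replicates 1 to 3. All 3 tolerant arrays lay above all 9 others, replicates 1 and 2 by far more than replicate 3. That gap among tolerant arrays arose with the scaling, which lowered tolerant replicate 3 most: unscaled they read 15.14, 15.12 and 15.13. Tolerant cells were higher than untreated cells by 0.85 ± 0.22 on the log2 scale (1.80-fold, adjusted p = 0.0185 by limma), higher than acute cells by 0.88 ± 0.22 (1.84-fold, adjusted p = 0.0144) and higher than recovered cells by 0.89 ± 0.22 (1.85-fold, adjusted p = 0.0161). Against untreated cells, acute and recovered cells differed by -0.04 each, with intervals of -0.52 to 0.45 and -0.53 to 0.44. The call against untreated cells was lost under quantile normalization (0.61, adjusted p = 0.0754) and without untreated replicate 1, tolerant replicate 1 or tolerant replicate 2 (0.0688, 0.0808 and 0.0807). Those against acute and recovered cells were lost without tolerant replicate 1 (0.0586 and 0.0670) or 2 (0.0627 and 0.0642), and without acute replicate 2 (0.0571) and recovered replicate 1 (0.0624).

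**Figure D2:**
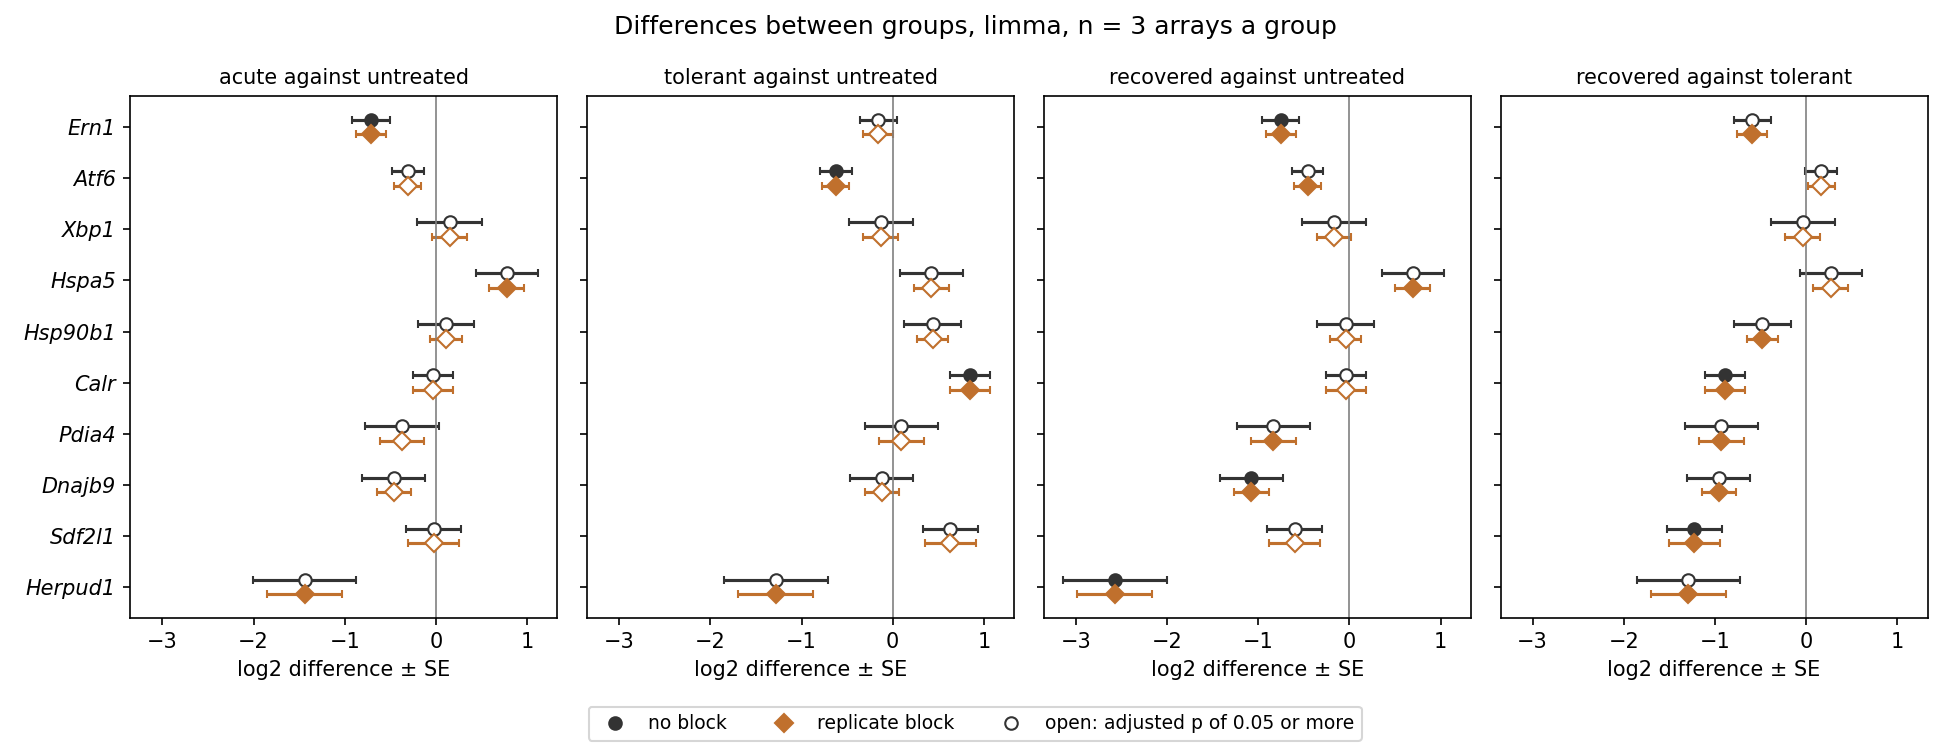
Difference in log2 level (x axis) for each gene (y axis) in 4 comparisons, with bars of 1 SE, n = 3 arrays a group; circles are the limma fit without a block, diamonds the fit with the replicate block, and open symbols did not pass the adjusted threshold of 0.05. Herpud1 in recovered against untreated cells lies at -2.57, the farthest from 0, and Xbp1 is open in all 4 panels.

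Pdia4, a protein disulfide isomerase, was at 10.02, 10.16 and 9.34 in untreated, 9.71, 9.68 and 9.02 in acute, 10.68, 10.18 and 8.95 in tolerant and 9.41, 8.76 and 8.85 in recovered replicates 1 to 3. The groups overlapped, and the recovered array was the lower one in each experiment against both untreated and tolerant cells. Under the replicate block recovered cells were lower than untreated cells by 0.83 ± 0.24 (1.78-fold, adjusted p = 0.0177 by limma) and lower than tolerant cells by 0.93 ± 0.24 (1.91-fold, adjusted p = 0.0143). Without the block neither was called (0.135 and 0.123), and over 24 alternatives the adjusted p ran from 0.00530 to 0.316 and from 0.00407 to 0.392.

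Dnajb9 (ERdj4), the co-chaperone of BiP that is a known XBP1 target, read 11.80, 11.23 and 10.82 in untreated, 11.31, 10.68 and 10.47 in acute, 11.74, 11.32 and 10.43 in tolerant and 10.33, 10.14 and 10.14 in recovered replicates 1 to 3. All 3 recovered arrays lay below all 9 others and within a narrow range. Recovered cells were lower than untreated cells by 1.08 ± 0.35 on the log2 scale (2.11-fold, adjusted p = 0.0312 by limma), and a second probe for the same transcript gave -1.14. They lay 0.96 ± 0.19 below tolerant cells under the replicate block (1.94-fold, adjusted p = 0.00384), which without it was not called (0.0716; 0.00227 to 0.245 over 24 alternatives). The call against untreated cells was lost with no filter on dim probes (0.0520) and without untreated replicate 1 or 2 (0.125 and 0.0686) or recovered replicate 1, 2 or 3 (0.0601, 0.0774 and 0.0800).

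Sdf2l1, a partner of BiP and its DnaJ proteins in the ER, was at 11.91, 11.74 and 11.94 in untreated, 11.93, 11.72 and 11.87 in acute, 13.14, 12.74 and 11.61 in tolerant and 11.34, 11.19 and 11.26 in recovered replicates 1 to 3. Tolerant replicates 1 and 2 stood above every other array, tolerant replicate 3 lay below the untreated arrays, and the recovered arrays were the lowest 3. Recovered cells were lower than tolerant cells by 1.23 ± 0.30 on the log2 scale (2.34-fold, adjusted p = 0.0159 by limma), by 1.80, 1.55 and 0.35 in the 3 experiments. That call was lost without tolerant replicate 1 (0.0542) or tolerant replicate 2 (0.0598). Tolerant against untreated cells gave 0.63 ± 0.30, not called (adjusted p = 0.183), and 1.07 with a call without tolerant replicate 3 (adjusted p = 0.00164; 0.000275 to 0.551 over 24 alternatives). Recovered cells lay below untreated cells by 0.57, 0.55 and 0.68 in the 3 experiments, with no overlap of the arrays; that difference of -0.60 ± 0.30 was not called (adjusted p = 0.151), and it was without tolerant replicate 3 (0.0104) and in the authors' values (-0.68, 0.0351).

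Herpud1, which recruits the ubiquitin ligase of ER-associated degradation, was at 14.71, 14.06 and 13.25 in untreated, 13.51, 13.01 and 11.18 in acute, 13.21, 13.00 and 11.97 in tolerant and 11.11, 11.59 and 11.61 in recovered replicates 1 to 3. The recovered arrays lay below all untreated and all tolerant arrays, while acute replicate 3 fell among them. Recovered cells were lower than untreated cells by 2.57 ± 0.57 on the log2 scale (5.95-fold, adjusted p = 0.00428 by limma), and this was called in all 24 alternatives (adjusted p of 0.000160 to 0.0219). By experiment the fall was 3.61, 2.47 and 1.64.

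The other LPS groups lay between. Herpud1 was lower in acute than in untreated cells by 1.44 ± 0.41 under the replicate block (2.71-fold, adjusted p = 0.0183 by limma; 0.0825 without it, and 0.00268 to 0.272 over 24 alternatives). It was lower in tolerant than in untreated cells by 1.28 ± 0.41 (2.43-fold, adjusted p = 0.0357 with the block; 0.149 without it, and 0.00710 to 0.369 over 24 alternatives). Recovered cells were lower than tolerant cells by 1.29 ± 0.41 (2.45-fold, adjusted p = 0.0307 with the block; 0.127 without it, and 0.00947 to 0.318 over 24 alternatives). In each of these 3 comparisons the direction was the same in all 3 experiments.

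Within groups many of the members moved together from array to array. Replicate 1 lay below the group mean for 1 of 10 members in untreated, 1 in acute and 0 in tolerant cells, with a median deviation of 0.44, 0.30 and 0.48 on the log2 scale. Replicate 3 lay below it for 8, 7 and 8 members, with median deviations of -0.41, -0.32 and -0.70. Recovered arrays deviated by a median of 0.10, -0.07 and -0.03, so this spread was not seen among them. None of the recovered arrays was on slide 1, which held replicate 1 of the other groups. Their narrower spread therefore cannot be told apart from the slide. The median over all genes deviated by -0.02 to 0.05. Hspa5 tracked Hsp90b1 with r = 0.985 and Dnajb9 with r = 0.977 after the group means were removed (12 arrays, which share experiment, slide and scan). Of 20468 other genes 261 (1.28%) reached an r over 0.9 with Hspa5 in that way, 3 of them members. Not every member joined in. After the group means were removed, Hspa5 and Ern1 had r = 0.14, Calr and Atf6 r = -0.23 and Calr and Ern1 r = -0.45. Mean deviations of replicates 1 to 3 were 0.00, 0.06 and -0.07 for Calr and 0.14, -0.18 and 0.04 for Ern1.

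**Figure D3:**
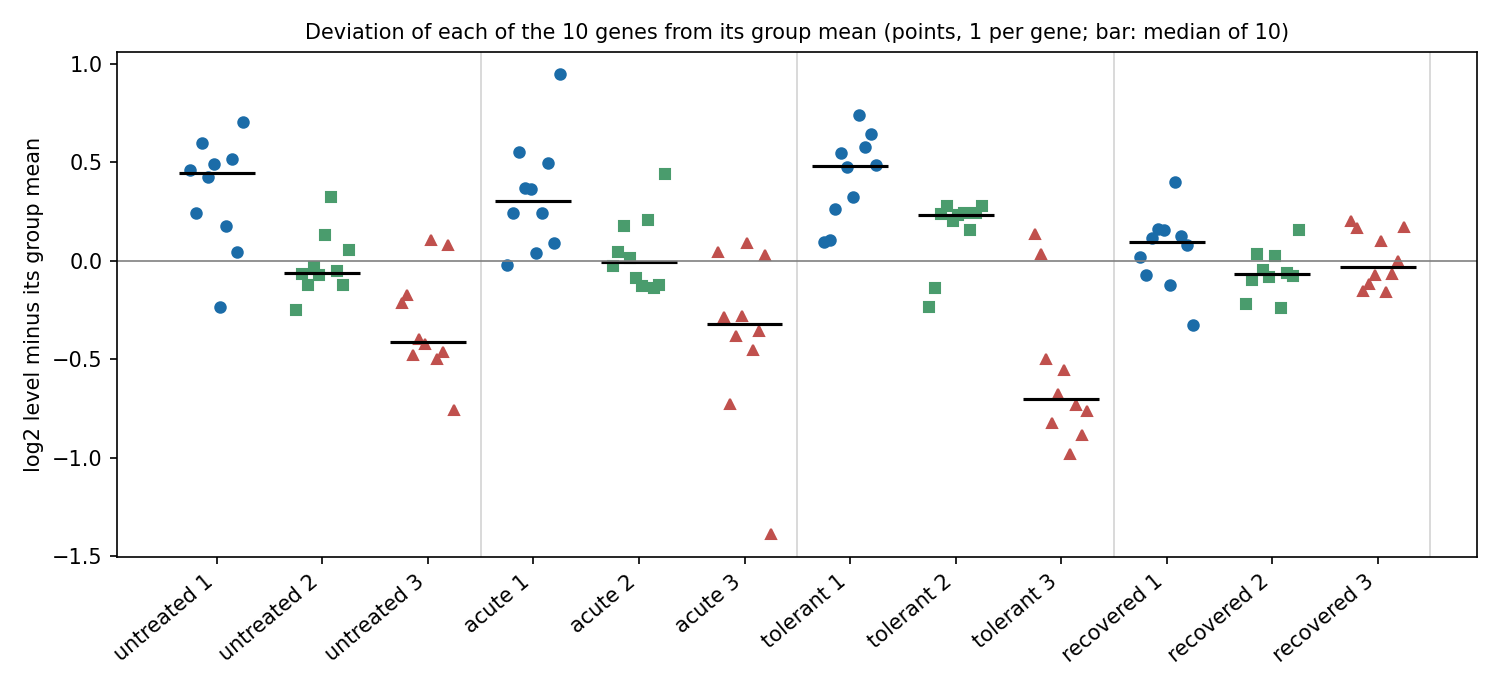
Deviation of the log2 level from the group mean (y axis) on each of the 12 arrays (x axis); each point is 1 of the 10 genes and bars are their medians. The bars fall from 0.44 to -0.41 among untreated and from 0.48 to -0.70 among tolerant arrays and stay between -0.07 and 0.10 among recovered arrays.

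Across all 12 arrays, group differences included, Dnajb9 and Pdia4 had r = 0.90, Herpud1 and Dnajb9 r = 0.86, and Sdf2l1 and Calr r = 0.84. Calr and Atf6 had r = -0.53, and Hspa5 and Ern1 r = -0.44. Of 6387 named genes called by the F-test, those most like Hspa5 over the 12 arrays were Nhsl1 (r = 0.94), Cept1 and Atp11a (both 0.92), Flnc (0.91) and Arih1 (0.90). Among the same genes, those most like Xbp1 were Nfil3 (0.77), Tmtc4 (0.76), 2810408I11Rik (0.74), Dock11 and Garnl3 (both 0.73). Neither Xbp1 nor Hspa5 was itself called by the F-test (adjusted p of 0.841 and 0.245). The search left out genes without a called group difference, so it may have missed closer partners. With group means removed, Xbp1 had r = 0.93 with Herpud1, 0.88 with Hspa5 and with Dnajb9, and 0.11 with Calr. These correlations describe 12 arrays that share groups and experiments.

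The surrounding pathway was read from 81 other ER genes, of which 79 were tested (Fkbp11 and Kdelr3 did not pass the filter on dim probes). In acute against untreated cells 8 were higher and 6 lower (17.7% of the 79, beside 29.3% of all genes), and with the replicate block 13 were higher and 9 lower, beside 43.5% of all genes. In tolerant against untreated cells 5 were higher and 5 lower (with the block 18 and 7), beside 19.9% of all genes called without and 37.5% with the block. In recovered against untreated cells 8 were higher and 11 lower (24.1% of the 79, beside 35.4% of all genes; with the block 11 and 24, beside 52.6%; 6 and 23 after quantile normalization; 8 and 32 in the authors' values). As a list, chaperone and folding genes lay lower in recovered than in tolerant cells: the median difference of the 23 tested was -0.46, with 1 of them above 0, where the median of all genes was 0.09 (quantile normalization gave -0.50 for the chaperones, the authors' matrix -0.49). Of these 23, 4 were called lower in recovered cells and 0 higher, and 14 lower with the block, beside 9.59% and 19.9% of all genes called lower. The 10 members had a median of -0.74 there. Import and secretory entry genes had a median of -0.30 over 22 genes, with 0 called by limma without the block (3 at an unadjusted p under 0.05) and 10 called lower under it, again beside 19.9% of all genes.

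**Figure D4:**
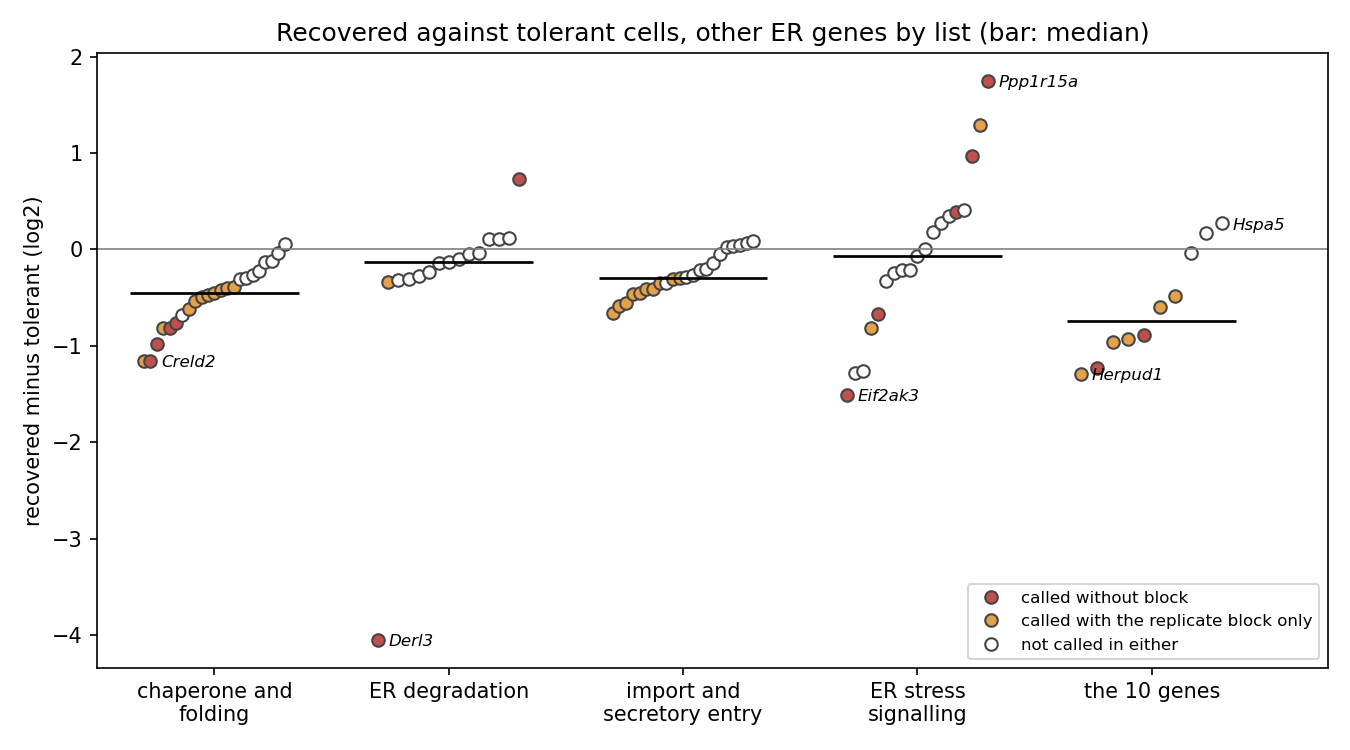
Recovered minus tolerant log2 level (y axis) for the other ER genes by list and for the 10 genes (x axis), 1 point a gene, with bars at the medians; red points were called without a block, orange ones with the replicate block alone and white ones in neither fit. Derl3 lies lowest at -4.05, Ppp1r15a highest at 1.75, and the chaperone median is at -0.46.

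Creld2, a secreted ER stress-induced factor, was, like Calr, highest in tolerant cells: 12.85, 12.57 and 12.79 in untreated, 12.87, 12.66 and 12.89 in acute, 14.69, 14.07 and 13.10 in tolerant and 12.90, 12.71 and 12.79 in recovered replicates 1 to 3. All 3 tolerant arrays lay above all 9 others. Tolerant cells were higher than untreated cells by 1.22 ± 0.31 (2.33-fold, adjusted p = 0.0160 by limma), a call lost without untreated replicate 2 or tolerant replicate 2 (0.0626 and 0.0586). Derl3, a derlin of ER-associated degradation, was at 7.54, 7.07 and 7.98 in untreated, 7.33, 6.75 and 7.77 in acute, 10.85, 9.83 and 7.21 in tolerant and 5.23, 4.76 and 5.76 in recovered replicates 1 to 3. The recovered arrays were the lowest 3, and tolerant replicate 3 lay among the untreated and acute arrays. Recovered cells were lower than tolerant cells, at -4.05 ± 0.72 (16.5-fold, adjusted p = 0.00325; 5.10e-06 to 0.0160 over 24 alternatives) and lower than untreated cells by 2.28 ± 0.72 (4.84-fold, adjusted p = 0.0297; 3.13e-06 to 0.170, called in 16 of 24). The sizes depend on the setting: recovered against untreated cells gave -1.05 with normexp background correction and -1.14 in the authors' values, and over all 24 the difference from tolerant cells ran from -5.35 to -2.48. The windows of both genes held ERSE on the opposite strand, starting 126 bases before the start in Creld2 and 156 in Derl3. Of the 12 other ER genes named for the size of their called changes, 11 had a window and 2 held ERSE. It was not found in Asns, Chac1, Ddit3, Eif2ak3, Herpud2, Ppp1r15a, Traf2, Trib3 or Wfs1. Other ER genes outside the members whose window held it were Canx, Dnajc3, Ero1lb, Pdia6 and Syvn1. They are named without a share, because too few genes of that list had a window. Of these, Syvn1, the ubiquitin ligase HRD1, rose from untreated to tolerant cells (0.76 ± 0.18, adjusted p = 0.0125 by limma), while Canx (0.25 ± 0.30), Dnajc3 (0.27 ± 0.17), Pdia6 (0.54 ± 0.37) and Ero1lb, named Ero1b in current annotation (0.06 ± 0.19), were not called there (adjusted p of 0.652, 0.322, 0.367 and 0.887). By replicate number Derl3 gave 3.31, 2.77 and -0.76 in tolerant against untreated cells, and the arrays overlapped.

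The third sensor, Eif2ak3 (PERK), read 9.66, 9.34 and 8.72 in untreated, 7.26, 7.33 and 6.66 in acute, 8.81, 9.23 and 8.24 in tolerant and 7.45, 7.67 and 6.62 in recovered replicates 1 to 3. All acute and recovered arrays lay below all untreated and tolerant arrays, the same split as for Ern1. It fell by 2.16 ± 0.35 in acute cells (4.46-fold, adjusted p = 0.000681 by limma), and recovered cells were lower than tolerant cells by 1.51 ± 0.35 (adjusted p = 0.0121). Downstream of it, Ddit3 (CHOP) was 1.85 ± 0.36 lower in acute than in untreated cells (adjusted p = 0.00213). Ppp1r15a (GADD34) and Ppp1r15b, which direct a phosphatase to eIF2 alpha, went the other way, higher in acute cells by 2.08 ± 0.20 and 2.04 ± 0.17 and in recovered cells by 1.95 ± 0.20 and 1.85 ± 0.17. Both were called in all 24 alternatives. Traf2, the adaptor that binds active Ern1, was higher in all 3 LPS groups, by 1.21, 1.07 and 1.25 (SE 0.13 each) in acute, tolerant and recovered cells.

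Chac1, Trib3 and Asns, targets of the ATF4 and CHOP arm, were lower in tolerant than in untreated cells, with differences of -4.48 ± 1.11, -4.31 ± 1.10 and -2.96 ± 0.74 on the log2 scale (adjusted p of 0.0151, 0.0173 and 0.0154 by limma). Untreated replicate 3 lay far below its group for all 3: Chac1 read 12.74, 11.86 and 8.75, Trib3 14.63, 13.33 and 10.21, and Asns 15.21, 14.34 and 12.29. Tolerant arrays lay below all untreated arrays for each gene, at 6.04 to 7.33, 8.04 to 8.89 and 10.18 to 11.61. Each of the 3 calls was lost without untreated replicate 1 (adjusted p of 0.0627, 0.0689 and 0.0622) or untreated replicate 2 (0.0622, 0.0670 and 0.0607). Over 24 alternatives the differences ran from -5.66 to -3.17 for Chac1, from -5.56 to -3.22 for Trib3 and from -3.79 to -2.33 for Asns. That of Trib3 was also lost without tolerant replicate 2 or 3 (0.0539 and 0.0518) and that of Asns without tolerant replicate 3 (0.0577). Low values were not confined to tolerant cells. Recovered against untreated cells gave -5.76 ± 1.11 for Chac1 and -5.57 ± 1.10 for Trib3 (adjusted p of 0.00190 and 0.00219 by limma), called in all 24 alternatives. The sizes ran from -7.16 to -3.18 and from -6.82 to -3.22 over these. By replicate number Chac1 gave -7.83, -6.50 and -2.95 there, and Trib3 -7.42, -5.89 and -3.39. By replicate number Asns gave -2.64, -1.76 and -0.60 there. Acute against untreated cells gave -2.46, -1.74 and -1.99 for Trib3, -0.71, -0.0039 and -0.75 for Chac1, and -0.15, 0.25 and 0.52 for Asns. Chac1 was also the single ER gene called between recovered and acute cells (-5.27 ± 1.11, adjusted p = 0.0420; 6 were called with the block), a call kept in 15 of 24 alternatives (differences of -6.81 to -2.68, adjusted p of 0.00162 to 0.162) and lost, among others, without acute replicate 1 (0.162) or 2 (0.159).

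Beside the values of tolerant cells stand markers of other cells. Of 4 neutrophil markers S100a8 and Camp were measured, with a summed intensity of 1307 to 3050 in tolerant cells against 253 to 454 in untreated, 538 to 712 in acute and 912 to 1186 in recovered cells, and Ngp was not above background on any array. Of 5 plasma cell markers Sdc1 and Derl3 itself were measured, with a sum of 1911 to 3553 in tolerant, 1112 to 1598 in untreated, 1233 to 1727 in acute and 1406 to 1466 in recovered cells, while Mzb1 and Tnfrsf17 were above background on 0 of 12 arrays. None of 4 B-cell and of 3 erythroid markers passed the filter. Of 4 dendritic cell markers Zbtb46 read 5.22 in untreated and 10.53, 9.37 and 10.56 in acute, tolerant and recovered cells. Ccr7, above background on 5 of 12 arrays, stood 0.93, 2.28 and 1.09 above untreated cells in these groups, Siglech differed by 0.00 to 0.09 and Flt3 was above background on 1 array. Their summed intensity, nearly all of it Siglech, was 68857 to 115559 in untreated, 83767 to 123400 in acute, 87903 to 97555 in tolerant and 92482 to 102356 in recovered cells. Of 4 stromal markers Dcn was measured, with a sum of 20.2 to 36.2 in untreated, 25.5 to 109.9 in acute, 43.5 to 75.6 in tolerant and 38.8 to 74.2 in recovered cells, while Col1a1 and Pdgfra were above background on 0 of 12 arrays. The part of these cells in the values of the LPS groups was not tested.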

How the data were processed

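RNA of 12 macrophage cultures was hybridised to 12 single-colour arrays, 3 in each of 4 groups. Per the file headers, the deposited scanner files hold spot intensity that Agilent Feature Extraction 10.7.3.1 corrected for background, with probe positions on mm9. The authors' deposited matrix holds log2 values. Its normalization is not given in the sources used here, the submitters' processing notes name limma, and it served as an alternative. Processed intensity, on the log2 scale, was shifted so that the 75th percentile was equal on every array. Control and outlier spots were left out, a probe had to pass the scanner's background flag on each of the 3 arrays of some group, and the probe with the highest mean stood for a gene. Of 55681 probes 28056 were kept, for 20469 genes. limma 3.58.1 in R 4.3.3 (lmFit, eBayes, two-sided) was fitted to all 12 arrays without a block, with Benjamini-Hochberg adjustment and calls at an adjusted p under 0.05. The fit was tested on simulated data.

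Same-numbered arrays were taken as 1 independent experiment, from the labels' replicate numbers alone. Their deviations from the group means correlated in all 18 pairs (0.275 to 0.773, median 0.449). The members and lists were chosen with earlier results of these data known. Named ER genes were, per comparison, up to 3 called rises and 3 called falls of largest size without overlap between groups, and likeness was taken over genes called by the F-test. Alternatives covered quantile normalization, normexp background, no filter, the authors' values, replicate, slide and scan day blocks, the first scan day, the mean of all probes, an intensity trend and each array left out. To these were added, after seeing the data, the replicate block without tolerant replicate 3 and the replicate block on the first scan day alone. Promoter windows were searched in Python 3.11.15 with pandas 2.3.3, and of the 81 other ER genes 64 had a window, under 80%, so a share over that list is void and matches in it are named only. Figures used matplotlib 3.10.9.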

Additional observations from a re-analysis of the deposited data

Results flagged for a closer look

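Among the members, 3 differences between LPS groups came with values against untreated cells of opposite sign, and limma tested each difference itself. For Calr the negative value was -0.04 in acute and in recovered cells, not called (adjusted p of 0.940 and 0.899 by limma). Calr was thus called against untreated cells in tolerant cells alone. Neither Sdf2l1 value against untreated cells was called (0.183 and 0.151). Sdf2l1 stood at 0.63 in tolerant and at -0.60 in recovered against untreated cells, and the difference between recovered and tolerant cells was -1.23 (adjusted p = 0.0159, lower in 3 of 3 experiments). Calr stood at -0.04 in acute and 0.85 in tolerant against untreated cells, and tolerant and acute cells differed by 0.88 (adjusted p = 0.0144, higher in 3 of 3 experiments). Calr stood at -0.04 in recovered against untreated cells, and recovered and tolerant cells differed by -0.89 (adjusted p = 0.0161, lower in 3 of 3 experiments). In these 3 differences experiment 3 gave the smallest value: -0.35 for Sdf2l1, and 0.24 and -0.23 for Calr.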

How the results depend on the processing

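Over 24 alternatives and all 60 member differences, 1239 values kept both direction and side of the threshold, 118 gained a call, 29 lost one and 54 changed sign, all of these uncalled before and after. Of the named ER genes 698 values kept both and 46 lost the call. The fall of Herpud1 in recovered against untreated cells was called in all 24. With the intensity trend in the variance prior no count moved by over 1.5 times. Below, acute/untreated stands for acute against untreated cells, and so on, and the 6 comparisons are, in order, acute/untreated, tolerant/untreated, recovered/untreated, tolerant/acute, recovered/tolerant and recovered/acute. The 2 alternatives that combine the replicate block with fewer arrays were chosen after seeing the data. The cause of these shifts was not tested, except that leaving out arrays leaves fewer of them. With quantile normalization, members called numbered 2 in acute/untreated and 1 in tolerant/untreated and calls among the other ER genes numbered 29 in recovered/untreated, where limma called 34.2%, 23.2% and 42.6% of all genes in acute/untreated, tolerant/untreated and recovered/untreated. With normexp background correction, members called numbered 4 in recovered/tolerant and calls among the other ER genes numbered 17 in recovered/tolerant and 0 in recovered/acute, where limma called 26.8% and 2.29% of all genes in recovered/tolerant and recovered/acute. With no filter on dim probes, calls among the other ER genes numbered 0 in recovered/acute, where limma called 0.280% of all genes in recovered/acute. With the authors' values, members called numbered 2 in acute/untreated, 7 in recovered/untreated, 2 in tolerant/acute and 6 in recovered/tolerant and calls among the other ER genes numbered 28 in acute/untreated, 40 in recovered/untreated, 26 in tolerant/acute, 35 in recovered/tolerant and 4 in recovered/acute, where limma called 45.5%, 54.4%, 37.5%, 36.2% and 5.88% of all genes in acute/untreated, recovered/untreated, tolerant/acute, recovered/tolerant and recovered/acute. The F-test called 8 members. When the replicate number was a block, members called numbered 3 in acute/untreated, 6 in recovered/untreated, 2 in tolerant/acute and 7 in recovered/tolerant and calls among the other ER genes numbered 22 in acute/untreated, 25 in tolerant/untreated, 35 in recovered/untreated, 25 in tolerant/acute, 34 in recovered/tolerant and 6 in recovered/acute, where limma called 43.5%, 37.5%, 52.6%, 44.5%, 45.1% and 10.7% of all genes in the 6 comparisons in the order named above. The F-test called 8 members. With the slide as a block, members called numbered 4 in acute/untreated, 4 in tolerant/untreated, 6 in recovered/untreated, 2 in tolerant/acute and 6 in recovered/tolerant and calls among the other ER genes numbered 27 in acute/untreated, 27 in tolerant/untreated, 35 in recovered/untreated, 29 in tolerant/acute, 25 in recovered/tolerant and 4 in recovered/acute, where limma called 45.5%, 39.4%, 49.6%, 47.0%, 40.2% and 7.82% of all genes in the 6 comparisons in the order named above. The F-test called 7 members. With the scan day as a block, members called numbered 3 in acute/untreated, 6 in recovered/untreated, 2 in tolerant/acute and 6 in recovered/tolerant and calls among the other ER genes numbered 22 in tolerant/untreated, 33 in recovered/untreated, 21 in tolerant/acute, 27 in recovered/tolerant and 5 in recovered/acute, where limma called 41.4%, 34.9%, 49.8%, 41.8%, 41.1% and 8.35% of all genes in the 6 comparisons in the order named above. The F-test called 8 members. On the first scan day alone, members called numbered 3 in acute/untreated, 4 in tolerant/untreated, 5 in recovered/untreated, 2 in tolerant/acute, 5 in recovered/tolerant and 1 in recovered/acute and calls among the other ER genes numbered 17 in recovered/tolerant and 5 in recovered/acute, where limma called 29.7%, 21.8%, 36.5%, 25.3%, 18.5% and 2.76% of all genes in the 6 comparisons in the order named above. With the mean of all probes, members called numbered 0 in acute/untreated and 2 in tolerant/acute, where limma called 30.2% and 23.5% of all genes in acute/untreated and tolerant/acute. Under the replicate block and without tolerant replicate 3, members called numbered 4 in acute/untreated, 5 in tolerant/untreated, 7 in recovered/untreated, 5 in tolerant/acute, 5 in recovered/tolerant and 2 in recovered/acute and calls among the other ER genes numbered 22 in acute/untreated, 24 in tolerant/untreated, 35 in recovered/untreated, 23 in tolerant/acute, 31 in recovered/tolerant and 6 in recovered/acute, where limma called 42.6%, 31.7%, 51.4%, 35.2%, 32.9% and 9.79% of all genes in the 6 comparisons in the order named above. The F-test called 9 members. Under the replicate block on the first scan day alone, members called numbered 3 in acute/untreated, 6 in tolerant/untreated, 7 in recovered/untreated, 4 in tolerant/acute, 6 in recovered/tolerant and 1 in recovered/acute and calls among the other ER genes numbered 20 in tolerant/untreated, 21 in tolerant/acute, 24 in recovered/tolerant and 6 in recovered/acute, where limma called 32.5%, 25.3%, 41.5%, 28.9%, 24.4% and 5.09% of all genes in the 6 comparisons in the order named above. The F-test called 9 members. Without 1 array at a time, members called ran from 0 to 2 in acute/untreated, 0 to 3 in tolerant/untreated, 1 to 6 in recovered/untreated, 0 to 2 in tolerant/acute, 0 to 4 in recovered/tolerant and 0 in recovered/acute. Other ER genes called ran from 11 to 14 in acute/untreated, 3 to 14 in tolerant/untreated, 14 to 20 in recovered/untreated, 6 to 12 in tolerant/acute, 6 to 15 in recovered/tolerant and 0 to 2 in recovered/acute. The F-test then called 2 to 6 members. Of all genes 24.5% to 29.3% in acute/untreated, 14.2% to 21.0% in tolerant/untreated, 28.5% to 36.7% in recovered/untreated, 15.2% to 23.4% in tolerant/acute, 12.5% to 21.9% in recovered/tolerant and 0.122% to 2.16% in recovered/acute were called.

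With quantile normalization, signs turned for Hsp90b1 in acute/untreated (-0.29), Xbp1 in acute/untreated (-0.28) and Calr in recovered/acute (0.0047). With the authors' values, signs turned for Hsp90b1 in acute/untreated (-0.26) and Xbp1 in acute/untreated (-0.24). With the slide as a block, signs turned for Hsp90b1 in recovered/untreated (0.12), Xbp1 in recovered/tolerant (0.11), Hspa5 in recovered/acute (0.061), Hsp90b1 in recovered/acute (0.0065) and Ern1 in recovered/acute (0.082). On the first scan day alone, signs turned for Dnajb9 in tolerant/untreated (0.015), Herpud1 in tolerant/acute (-0.15) and Hspa5 in recovered/tolerant (-0.085). With the mean of all probes, signs turned for Ern1 in tolerant/untreated (0.26) and Ern1 in recovered/acute (0.12). Under the replicate block and without tolerant replicate 3, signs turned for Dnajb9 in tolerant/untreated (0.10). Under the replicate block on the first scan day alone, signs turned for Dnajb9 in tolerant/untreated (0.015), Herpud1 in tolerant/acute (-0.15) and Hspa5 in recovered/tolerant (-0.085). Leaving out 1 array at a time turned a sign, over the ranges given, for Dnajb9 in tolerant/untreated (-0.41 to 0.25), Xbp1 in tolerant/untreated (-0.37 to 0.17), Ern1 in tolerant/untreated (-0.28 to 0.070), Hsp90b1 in recovered/untreated (-0.25 to 0.20), Xbp1 in recovered/untreated (-0.41 to 0.13), Calr in acute/untreated (-0.15 to 0.030), Calr in recovered/untreated (-0.16 to 0.022), Sdf2l1 in acute/untreated (-0.088 to 0.035), Hsp90b1 in acute/untreated (-0.10 to 0.36), Xbp1 in acute/untreated (-0.13 to 0.51), Pdia4 in tolerant/untreated (-0.27 to 0.59), Hspa5 in recovered/acute (-0.27 to 0.10), Hsp90b1 in recovered/acute (-0.29 to 0.027), Calr in recovered/acute (-0.073 to 0.055), Herpud1 in tolerant/acute (-0.54 to 0.63), Xbp1 in recovered/tolerant (-0.29 to 0.095), Hspa5 in tolerant/acute (-0.63 to 0.061), Hspa5 in recovered/tolerant (-0.14 to 0.54) and Ern1 in recovered/acute (-0.14 to 0.069). All 10 probes used were above background on all 12 arrays, and 3 arrays a group limit the precision of every value.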

Other observations

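The members Herpud1, Dnajb9, Pdia4 and Sdf2l1 (chosen after their values were seen) spread less among recovered than among tolerant arrays: the standard deviation of Dnajb9 was 0.11 in recovered and 0.67 in tolerant cells, that of Sdf2l1 0.08 and 0.79, that of Herpud1 0.28 and 0.67, and that of Pdia4 0.35 and 0.89 (n = 3 each, no test of the spread was run). Recovered replicate 1 was on slide 2 and tolerant replicate 1 on slide 1, so the difference in spread cannot be told apart from the slide. On the arrays of the second scan day, 1 per group, recovered minus tolerant gave 0.98 for Hspa5, -0.36 for Herpud1, -0.29 for Dnajb9, -0.35 for Sdf2l1 and -0.11 for Pdia4.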
